A study of Homo sapiens with 12 samples.

Results

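Metallothioneins and the zinc regulators around them were followed in SH-SY5Y cells that had been given hydrogen peroxide (H2O2). The 9 genes were chosen by name among the 55765 gene symbols counted, not by a threshold on a measured value. They were 7 metallothioneins (MT1E, MT1F, MT1G, MT1M, MT1X, MT2A and MT3), the transcription factor MTF1 and the zinc exporter SLC30A1. SH-SY5Y is a neuroblastoma line subcloned from SK-N-SH, the bone marrow line that the labels name as the source, so that every library comes from 1 line. All 12 libraries came from cells differentiated for 7 days with all-trans retinoic acid (ATRA). In the co-treatment experiment, 3 control libraries (co control) had ATRA alone and 3 treated libraries (co treated) had H2O2 alongside ATRA for the whole 7 days. In the pre-treatment experiment, 3 treated libraries (pre treated) came from cells that met H2O2 for 72 h before ATRA was started, and 3 control libraries (pre control) from cells that did not. The H2O2 dose is 10 mM in the description deposited with the data and 10 μM in the methods of the study. The labels do not say whether the replicates of a group were grown as separate cultures, so p-values measure only the spread between these libraries, which may be technical.

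Metallothioneins are very small proteins, rich in cysteine, that bind zinc and copper and can release zinc when their cysteines are oxidised. MTF1 is the zinc-sensing transcription factor of the cell. When free zinc rises it binds metal response elements (MREs) before the metallothionein genes and before SLC30A1, whose product carries zinc out of the cell across the plasma membrane. MT1 and MT2 forms are found in most tissues, whereas MT3 was first described as a growth-inhibitory factor of the brain.

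The promoters are shown for the MRE sites, through which MTF1 is known to act on metallothioneins and SLC30A1. RefSeq promoters, running from 250 bases before to 50 bases after the transcription start on the build GRCh38.p14, were at hand for 4 of the 9 genes (not MT1E, MT1F, MT1G, MT1M or MT3). The MT2A promoter lies at chr16:56608334-56608633 (plus strand), that of MT1X at chr16:56682220-56682519 (plus strand), that of SLC30A1 at chr1:211579112-211579411 (minus strand) and that of MTF1 at chr1:37859543-37859842 (minus strand). Each is written 5′ to 3′ along its own gene, with every MRE core (TGCACNC or TGCGCNC on either strand) in capitals.
MT2A: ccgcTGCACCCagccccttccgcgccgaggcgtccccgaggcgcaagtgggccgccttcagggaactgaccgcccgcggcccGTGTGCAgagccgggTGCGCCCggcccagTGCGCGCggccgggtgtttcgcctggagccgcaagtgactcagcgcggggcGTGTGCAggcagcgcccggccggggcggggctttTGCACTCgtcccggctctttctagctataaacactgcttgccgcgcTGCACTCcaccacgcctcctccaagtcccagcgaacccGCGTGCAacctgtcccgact
MT1X: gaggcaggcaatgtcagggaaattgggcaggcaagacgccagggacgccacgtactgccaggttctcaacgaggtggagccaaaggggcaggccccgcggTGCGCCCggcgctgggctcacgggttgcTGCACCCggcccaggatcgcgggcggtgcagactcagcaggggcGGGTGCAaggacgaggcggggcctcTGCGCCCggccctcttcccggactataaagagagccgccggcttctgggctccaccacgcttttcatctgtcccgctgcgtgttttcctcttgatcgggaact
SLC30A1: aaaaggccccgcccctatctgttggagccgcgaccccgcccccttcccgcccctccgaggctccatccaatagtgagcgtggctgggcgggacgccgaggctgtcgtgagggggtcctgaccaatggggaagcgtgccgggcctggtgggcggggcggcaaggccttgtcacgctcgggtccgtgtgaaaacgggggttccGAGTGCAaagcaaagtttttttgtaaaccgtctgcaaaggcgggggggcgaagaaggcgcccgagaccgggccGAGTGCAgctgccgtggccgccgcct
MTF1: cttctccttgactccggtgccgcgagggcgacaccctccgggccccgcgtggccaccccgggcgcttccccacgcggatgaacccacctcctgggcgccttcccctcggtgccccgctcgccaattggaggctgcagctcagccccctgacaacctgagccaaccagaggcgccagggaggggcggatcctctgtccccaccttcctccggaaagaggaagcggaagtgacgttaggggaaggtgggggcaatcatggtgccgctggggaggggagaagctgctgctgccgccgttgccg
The MT2A promoter held 8 MRE cores, that of MT1X 4 and that of SLC30A1 2, and none was found in the MTF1 window. In MT2A the first of them began at position -246 and in MT1X at position -150, counted from the start site. Among 35116 RefSeq promoters of the same length, 29.55% held at least 1 MRE core, 2.304% at least 3 and 0.1623% at least 5. A TATAAA box stood at position -29 in MT2A and at -30 in MT1X and was absent from the windows of SLC30A1 and MTF1. Of all promoters, 11.53% held at least 1 TATAAA on either strand and anywhere in the window. An antioxidant response element core (TGACNNNGC on either strand) occurred once in each of the MT2A, MT1X and SLC30A1 windows and in 13.35% of all promoters. No match overlapped a match of another motif. These matches describe letters, and binding was not measured.

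On the build hg19, used for the counts, the metallothionein genes stand in a row on chromosome 16, where 16 metallothionein names lie between 56598985 and 56718108. The 7 studied here are MT3 (56622986 to 56625000), MT2A (56642496 to 56643409), MT1E (56659387 to 56661024), MT1M (56666571 to 56667893), MT1F (56691643 to 56694610), MT1G (56700642 to 56701977, the one on the minus strand) and MT1X (56716382 to 56718108). Their spliced transcripts are 398 to 746 bases long. MTF1 (chromosome 1, 38275246 to 38325264, minus strand) has a transcript of 7937 bases in 11 exons, and SLC30A1 (chromosome 1, 211744910 to 211752503, minus strand) one of 5893 bases in 2 exons. Counts are per gene, so that the parts of a transcript are not told apart. Metallothionein paralogs resemble each other, and reads with more than 1 position (0.297 to 0.599 per counted read) were not counted. No stretch of 100 bases of the MT1E, MT1F, MT1G, MT1M, MT2A or MT3 transcript was identical in a transcript of another gene, while 22.0% of those of MT1X recur in a long non-coding RNA gene that overlaps it.

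Between 27576276 and 98287391 reads were counted on genes per library. Control replicate 3 of the pre-treatment experiment stood apart from the other replicates of its group, with a chi-square of 613 and 566 per degree of freedom against them, where all other pairs of replicates gave 27.6 to 167. It had 0.200 reads outside genes for each counted read, against 0.800 and 0.830 in pre control replicates 1 and 2 and 0.263 to 0.462 in the remaining libraries. Small structured RNA loci took 17.6% of its counted reads, against 1.58% and 2.88% in replicates 1 and 2, and 5.04% to 15.1% elsewhere. Each pre-treatment test of the 9 genes is therefore given over all 6 libraries and over the 5 without this library. As a check of the label, the 9 neuronal markers summed to 2655 to 3819 CPM (counts scaled by library size to a common total) and the 8 noradrenergic neuroblast markers to 1404 to 3179 CPM, although among them TH, the enzyme that opens catecholamine synthesis, reached only 0.0104 to 0.258 CPM. The 8 glial markers summed to 4.49 to 9.22 CPM.

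The metallothionein genes were expressed unequally, and MT2A and MT1X carried most of the family's reads. Levels are CPM scaled with TMM factors over all 12 libraries, and levels of different genes are compared only per kilobase (kb) of transcript. The length is that of 1 annotated transcript per gene, with 404 bases for MT1X and 401 for MT2A. All annotated exons together cover 1727 bases for MT1X and 914 for MT2A, and 7989 for MTF1 and 5893 for SLC30A1. The order of the metallothioneins against MTF1 and SLC30A1 thus depends on the length used. The median level per kb over the 12 libraries was 7.48 CPM for SLC30A1, 5.45 for MT2A, 4.81 for MT1X, 3.42 for MTF1, 0.691 for MT1F and 0.162 for MT1E. The ranges per kb of SLC30A1 (5.76 to 8.998 CPM), MT2A (2.79 to 7.12 CPM), MT1X (2.55 to 6.24 CPM) and MTF1 (2.79 to 5.03 CPM) overlapped with those of their neighbours in this order. MT1F (0.137 to 1.89 CPM per kb) lay below MT1X in every library, and overlapped with MT1E (0.0238 to 0.649 CPM per kb). MT2A was read 1463 times in all, MT1X 1262 times, MT1F 240 times and MT1E 127 times. MT1G and MT3 had 1 read each, in pre treated replicates 3 and 2, and MT1M had 0 reads in 12 libraries. The 3 counts that a count of 0 still allows correspond to 0.0305 to 0.109 CPM, depending on the library, which covers counting error only. MT3, the brain-enriched form, was thus not detectable at this depth above that level.

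**Figure D1:**
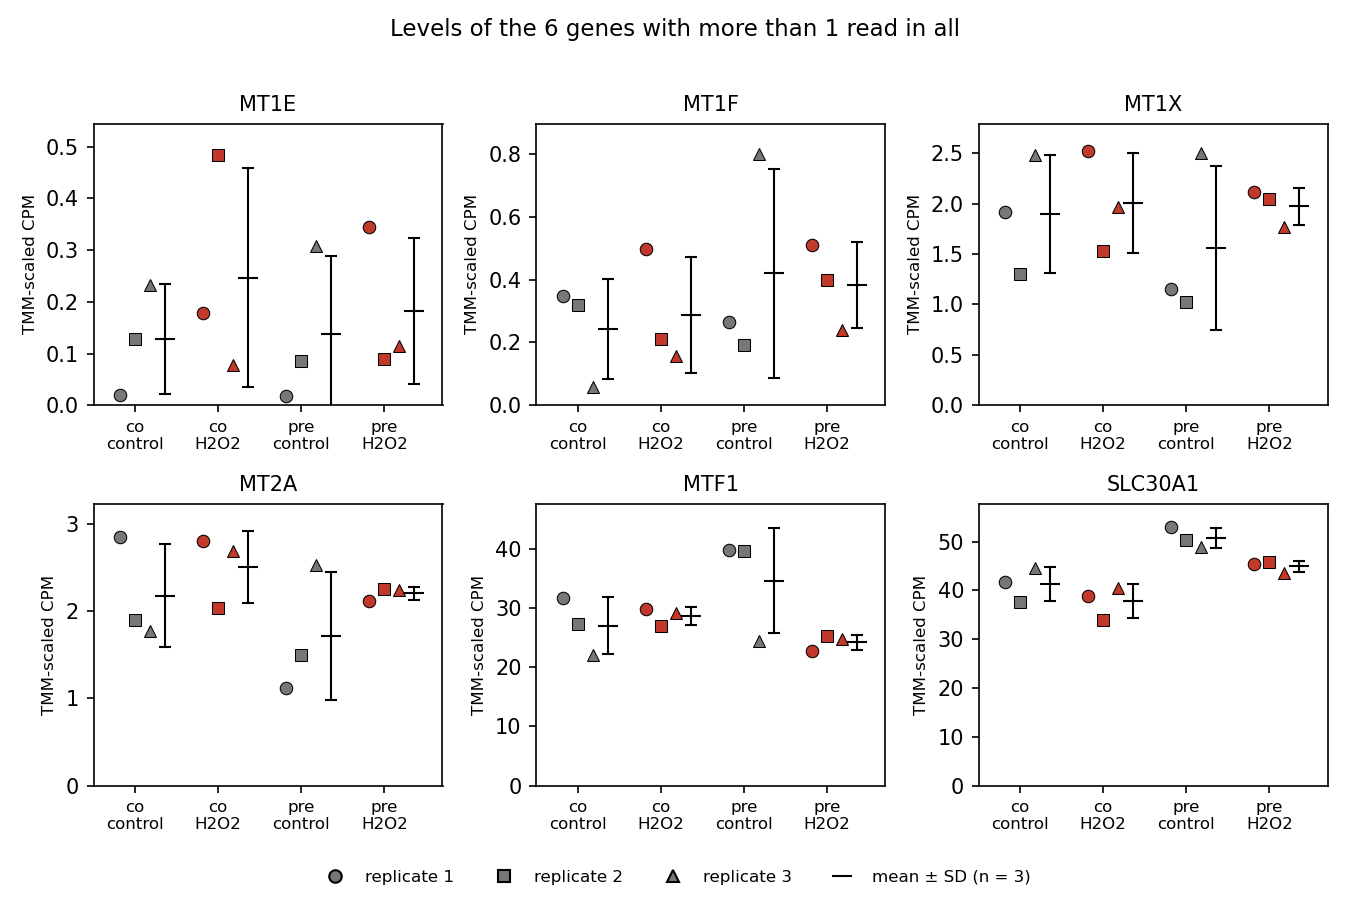
Levels of the 6 genes with more than 1 read in all, as TMM-scaled CPM on linear axes from 0, with 1 point per library (shape by replicate, grey for controls, red for H2O2) and the group mean ± SD (n = 3) beside them, the lower bar of MT1E in the pre control group being cut at 0. MT1X, MT2A and MT1F are higher and MTF1 is lower in pre control replicate 3 (triangle) than in replicates 1 and 2.

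H2O2 given together with ATRA was compared with ATRA alone to ask how oxidative stress during differentiation changes gene expression. None of the zinc genes changed past the test. MT2A was at 2.86, 1.90 and 1.78 CPM in co control replicates 1 to 3 and at 2.81, 2.03 and 2.69 CPM in co treated replicates 1 to 3. MT1X was at 1.92, 1.30 and 2.48 CPM in the controls and at 2.52, 1.53 and 1.97 CPM in the treated libraries. For both genes the treated values lay within or beside the span of the controls. MT1F stood at 0.347, 0.321 and 0.0583 CPM without H2O2 and at 0.497, 0.210 and 0.156 CPM with it. MT1E was read 1, 6 and 8 times in the controls and 5, 30 and 4 times in the treated libraries, so that treated replicate 2 alone stood high.

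Neither regulator changed past the test in co-treatment. MTF1 was at 31.8, 27.3 and 22.2 CPM in co control and at 30.0, 27.0 and 29.3 CPM in co treated replicates. SLC30A1 was at 41.6, 37.6 and 44.5 CPM in co control and at 38.9, 34.0 and 40.5 CPM in co treated replicates. The groups overlapped for both genes. Of the 9 genes, 6 passed the filter on low counts and 0 of these were called at an adjusted p below 0.05 with edgeR's quasi-likelihood test, where 0.598% of the 22089 genes tested were called. At an unadjusted p below 0.05 the count was also 0, and DESeq2, limma-voom and edgeR's exact test called 0 as well. The log2 fold change (log2FC, treated against control, with its standard error) was 0.19 ± 0.27 for MT2A, 0.07 ± 0.31 for MT1X, 0.14 ± 0.71 for MT1F, 1.06 ± 0.86 for MT1E, 0.08 ± 0.15 for MTF1 and -0.13 ± 0.13 for SLC30A1. The adjusted p-values of the 6 genes ran from 0.844 to 0.988. The 95% intervals were -0.40 to 0.78 for MT2A, -0.24 to 0.40 for MTF1 and -0.40 to 0.15 for SLC30A1, and the far wider one of MT1E, -0.82 to 2.93, leaves its direction unknown.

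Cells that met H2O2 before ATRA were compared with cells given ATRA alone, to ask what an earlier exposure leaves behind. Against control replicates 1 and 2, MT1X rose and MTF1 fell, and with control replicate 3 included neither change passed the test. MT1X was at 1.15, 1.03 and 2.50 CPM in pre control replicates 1 to 3 and at 2.11, 2.04 and 1.77 CPM in pre treated replicates 1 to 3. MT2A was at 1.12, 1.5005 and 2.53 CPM in the controls and at 2.12, 2.25 and 2.25 CPM in the treated libraries. For both, control replicates 1 and 2 lay below every treated library and control replicate 3 lay above every treated library. MT1F followed the same order in its controls, with 0.266, 0.193 and 0.802 CPM, but the treated values of 0.512, 0.400 and 0.240 CPM overlapped with them. MT1E was read 1, 4 and 20 times in the controls and 33, 6 and 9 times in the treated libraries, and did not pass the filter in this comparison.

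MTF1 was at 39.9, 39.7 and 24.5 CPM in pre control replicates 1 to 3 and at 22.9, 25.3 and 24.8 CPM in pre treated replicates 1 to 3. Control replicates 1 and 2 lay above every other library of either experiment, and control replicate 3 lay among the treated libraries. SLC30A1 was at 53.0, 50.4 and 48.9 CPM in the controls and at 45.5, 45.8 and 43.6 CPM in the treated libraries, so that these groups did not overlap. With library size as the only scaling, however, control replicate 3 (41.7 CPM) fell below the treated libraries (44.1 to 45.2 CPM), and the order of SLC30A1 in this library depends on the scaling.

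Over the 5 libraries, 5 of the 9 genes passed the filter, of which MT1X was called higher and MTF1 lower, where 26.1% of all genes tested were called. The count of 2 in 5 is thus near that of genes at large. The log2FC of MT1X was 0.88 ± 0.26 (adjusted p = 0.0402) and that of MTF1 -0.68 ± 0.12 (adjusted p = 0.00640). MT2A missed the threshold with 0.78 ± 0.26 (adjusted p = 0.0562), while MT1F had 0.76 ± 0.53 (adjusted p = 0.317) and SLC30A1 -0.18 ± 0.11 (adjusted p = 0.269). Over all 6 libraries 0 of 5 genes were called, where 0.0242% of all genes tested were called, and MTF1 was the 1 gene with an unadjusted p below 0.05. DESeq2, limma-voom and the exact test also called 0 of them. The log2FC was then 0.33 ± 0.39 for MT1X (adjusted p = 0.766), 0.36 ± 0.35 for MT2A (adjusted p = 0.720), -0.14 ± 0.63 for MT1F (adjusted p = 0.942), -0.51 ± 0.21 for MTF1 (adjusted p = 0.429) and -0.18 ± 0.14 for SLC30A1 (adjusted p = 0.666). In total RNA from whole cultures, a lower level may reflect fewer cells of a kind or less RNA per cell, and these cannot be told apart.

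**Figure D2:**
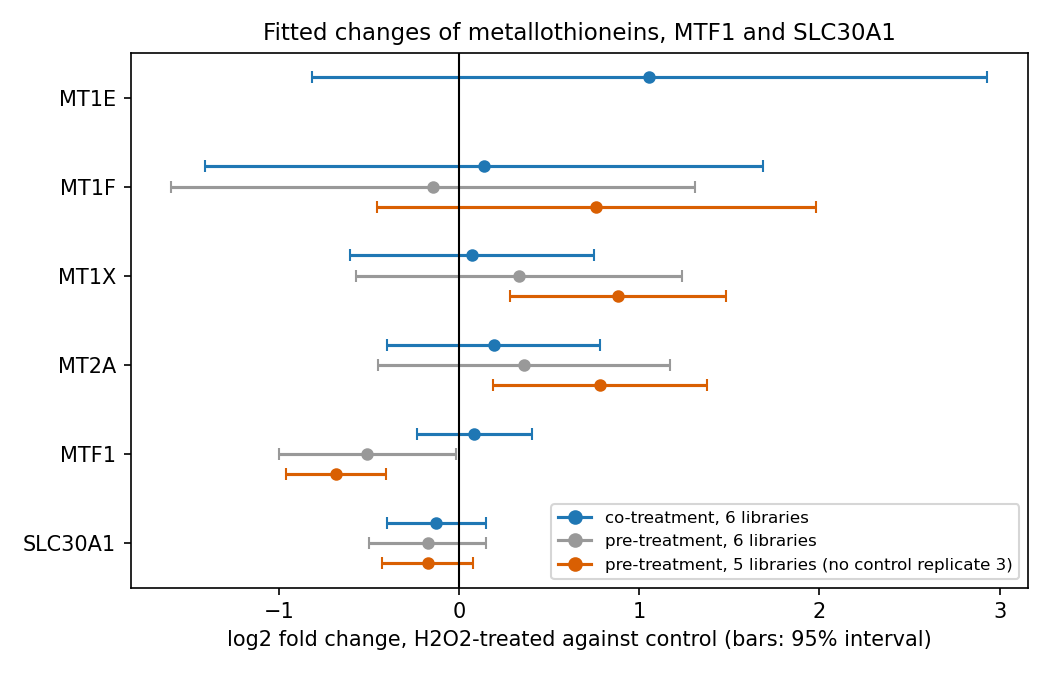
Log2FC of treated against control libraries with 95% intervals (bars) for co-treatment (blue), pre-treatment over 6 libraries (grey) and pre-treatment over 5 libraries (orange). The intervals of MT1X, MT2A and MTF1 leave 0 out over 5 libraries, and of these MTF1 alone does so over 6; no interval leaves 0 out in co-treatment.

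The call of MT1X depended on single libraries and on scaling. When the first or second control was left out its adjusted p was 0.0978 or 0.190, when the first or second treated library was left out 0.126 or 0.114, with a log2FC of 0.81 to 0.99 over all libraries left out in turn. That of MTF1 was 0.0503 without control replicate 2 and at most 0.0371 without any other library, with a log2FC of -0.73 to -0.65. With library size alone as the scaling, the median of all genes shifted from 0.01 to -0.21, the 2 genes called were MTF1 (-0.90) and SLC30A1 (-0.39, adjusted p = 0.0348), both lower, and MT1X (0.66, adjusted p = 0.103) was not called. Relative to the median of all genes, these values differ little from those under TMM.

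The 7 metallothioneins were also summed and set beside a group of short genes. The sum was at 5.14, 3.66 and 4.55 CPM in co control, at 6.004, 4.26 and 4.89 CPM in co treated, at 2.55, 2.81 and 6.14 CPM in pre control and at 5.09, 4.80 and 4.38 CPM in pre treated replicates 1 to 3. Pre control replicates 1 and 2 were the lowest of all libraries, and pre control replicate 3 was the highest on the TMM scale. Scaled by library size alone, co treated replicate 1 was the highest (6.13 CPM) and pre control replicate 3 was at 5.23 CPM. The share of counted reads on 868 protein-coding genes with under 1000 bases of exons was also lowest in pre control replicates 1 and 2 (0.336% and 0.324%). It was highest in replicate 3 (0.524%), with 0.390% to 0.502% elsewhere. By the same measure of all exons MT2A (914 bases) is short, but MT1X (1727), MT1F (1852) and MT1E (1052) are not. The short genes are therefore not matched in length to the metallothioneins. In co control replicates 1 to 3 the share was 0.390%, 0.477% and 0.482%, and in co treated replicates 1 to 3 it was 0.502%, 0.501% and 0.475%. Among the co-treatment libraries, co treated replicate 1 had both the highest share and the highest sum. Co control replicate 1 had the lowest share and the next highest sum. How far share and sum go together was not tested. Per 1000 counts on these short genes, the metallothioneins gave 0.871, 0.968 and 0.997 counts in pre control and 1.08, 1.06 and 1.06 counts in pre treated replicates, and 1.34, 0.756 and 0.870 counts in co control and 1.22, 0.834 and 1.05 counts in co treated replicates. On this base control replicate 3 sat beside the other pre controls, all pre treated libraries lay above all pre controls, and the co-treatment groups overlapped. The pre control values rest on 144, 131 and 398 metallothionein counts, and the pre treated values on 487, 324 and 347. Their counting error was not worked out, and the small gap from 0.997 to 1.06 may lie within it. The groups were not tested on this base.

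**Figure D3:**
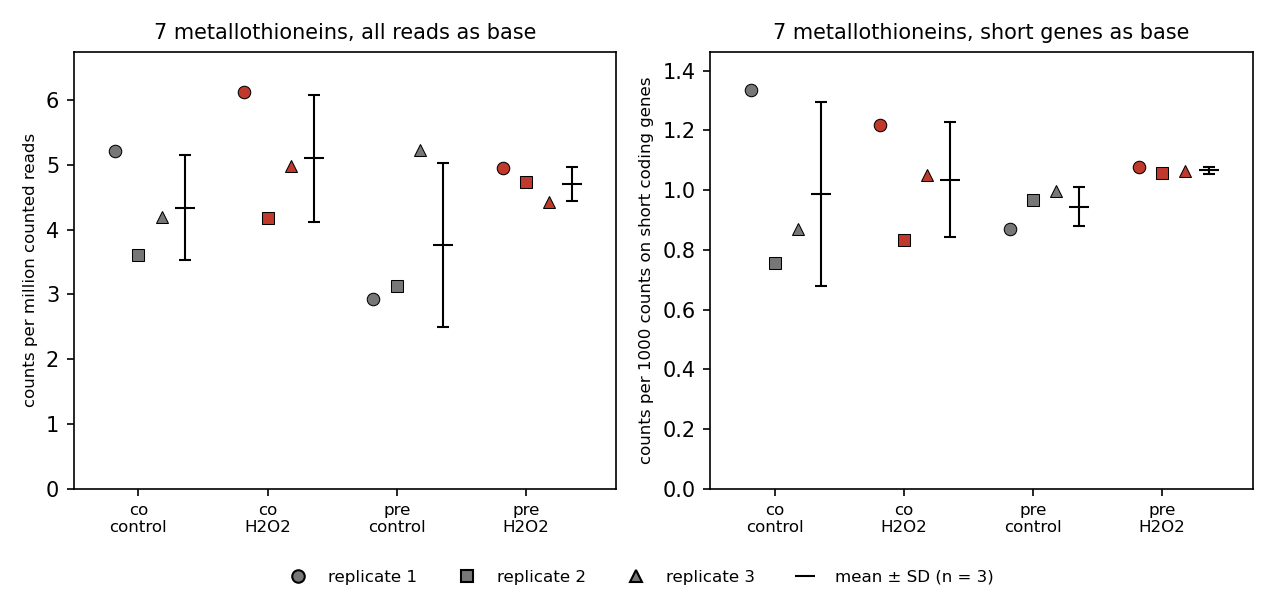
Summed counts of the 7 metallothioneins as CPM scaled by library size alone (left) and per 1000 counts on short protein-coding genes (right), with 1 point per library, shape by replicate, and the group mean ± SD (n = 3). On the left pre control replicate 3 lies above the pre treated libraries, and on the right it lies below them with replicates 1 and 2.

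MTF1 was set beside the reads that fell outside genes. Pre control replicates 1 and 2 had both the highest MTF1 levels (39.9 and 39.7 CPM) and the most reads outside genes (0.800 and 0.830 per counted read), while MTF1 lay between 22.2 and 31.8 CPM in the other 10 libraries, which had 0.200 to 0.462. In co control replicates 1 to 3, MTF1 was at 31.8, 27.3 and 22.2 CPM with 0.370, 0.285 and 0.284 reads outside genes. In co treated replicates 1 to 3 it was at 30.0, 27.0 and 29.3 CPM with 0.263, 0.429 and 0.342. In pre treated replicates 1 to 3 it was at 22.9, 25.3 and 24.8 CPM with 0.343, 0.400 and 0.462. MTF1 thus rose with these reads in co control and fell with them in co treated libraries. In pre treated libraries the lowest level went with the fewest such reads. None of the 10 had more than 0.462, so they do not show the level of MTF1 at 0.800 or above. On the TMM scale SLC30A1 had its highest levels in the same 2 libraries, but pre control replicate 3, with the fewest reads outside genes, came next. Within the co-treatment experiment, where reads outside genes ran from 0.263 to 0.429, MTF1 and SLC30A1 were not called. The part of these reads in the lower MTF1 level after pre-treatment was not tested.

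**Figure D4:**
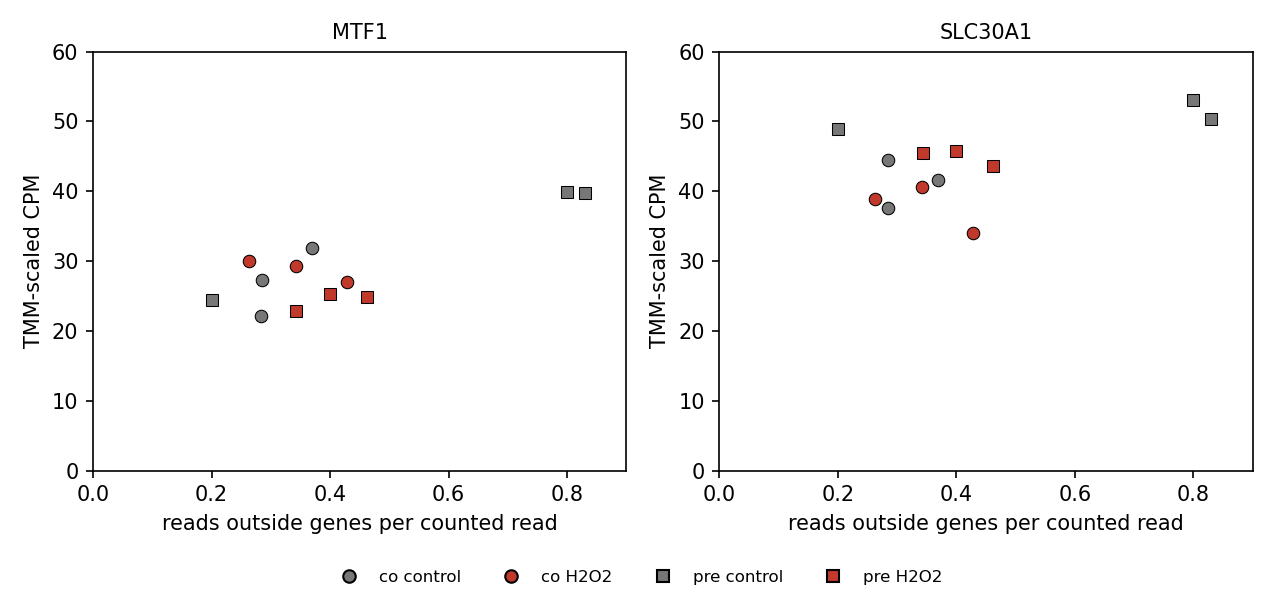
MTF1 (left) and SLC30A1 (right) in TMM-scaled CPM against reads outside genes per counted read, 1 point per library (circles co-treatment, squares pre-treatment, grey controls, red H2O2). Pre control replicates 1 and 2 stand to the right, and the pre control square at 0.200 is replicate 3.

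Ordered by group mean, SLC30A1 was highest in pre control (50.8 ± 2.07 CPM, SD, n = 3), followed by pre treated (44.9 ± 1.17), co control (41.3 ± 3.47) and co treated (37.8 ± 3.42), and neighbours overlapped from pre treated downwards. Without replicate 3, pre control stood at 51.7 ± 1.86 CPM for SLC30A1 and at 39.8 ± 0.168 CPM for MTF1 (SD, n = 2). For MTF1 the order was pre control (34.7 ± 8.86), co treated (28.7 ± 1.57), co control (27.1 ± 4.81) and pre treated (24.3 ± 1.27), where pre control overlapped with all others through replicate 3, and pre treated overlapped with co control but not with co treated. For MT2A it was co treated (2.51 ± 0.416), pre treated (2.21 ± 0.0738), co control (2.18 ± 0.589) and pre control (1.72 ± 0.730). MT1X was at 2.01 ± 0.496 in co treated, 1.97 ± 0.182 in pre treated, 1.90 ± 0.586 in co control and 1.56 ± 0.815 in pre control. Neighbours overlapped for both metallothioneins, but pre control did so only through replicate 3. Without it, pre control was at 1.31 ± 0.271 CPM for MT2A and 1.09 ± 0.0878 CPM for MT1X (SD, n = 2), with both libraries below every library of the other groups.

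The difference between the 2 responses was tested by an interaction term in 1 model of both experiments. MTF1 was the 1 gene of 6 tested with a difference past the threshold over 11 libraries, where 8.02% of all genes tested were called. The pre-treatment log2FC of MTF1 minus its co-treatment log2FC was -0.82 ± 0.20 (adjusted p = 0.0250). The difference was 0.75 ± 0.43 for MT1X (adjusted p = 0.262), 0.53 ± 0.38 for MT2A (adjusted p = 0.378) and -0.10 ± 0.17 for SLC30A1 (adjusted p = 0.722). So the rise of MT1X in one experiment was not shown to differ from its change in the other. Over all 12 libraries 0 of 6 were called, where 0.0287% of all genes tested were called, with -0.63 ± 0.27 for MTF1 (adjusted p = 0.549), which was the 1 gene with an unadjusted p below 0.05. DESeq2 and limma-voom called 0 there too. Over 11 libraries the call of MTF1 was lost without co control replicate 2 (adjusted p = 0.0788), co treated replicate 1 (0.0571) or 3 (0.0644), pre control replicate 1 (0.0827) or 2 (0.114) or pre treated replicate 1 (0.0684), its value staying between -0.95 and -0.70.

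Other zinc transporters were counted from lists. Of the 9 other genes of the SLC30 transporter family, 8 were tested. EdgeR called 0 in co-treatment or in pre-treatment over 6 libraries (0 in both at an unadjusted p below 0.05). Over 5 libraries 2 of 8 rose and 0 fell, near the 26.1% of all genes called there. These were SLC30A9 (0.62 ± 0.13, adjusted p = 0.0100) and SLC30A5 (0.48 ± 0.11, adjusted p = 0.0156), a transporter of the secretory pathway. The median log2FC of the 8 was 0.09 over 5 libraries, against 0.01 for all genes tested. Of the 14 SLC39 importers, 12 were tested over 5 libraries and 4 rose, namely SLC39A10 (0.45 ± 0.11), SLC39A1 (0.37 ± 0.11), SLC39A6 (0.43 ± 0.13) and SLC39A9 (0.41 ± 0.13), with a median of 0.29. A count of 4 in 12 is again read against the 26.1% of all genes. None of the 11 importers tested in co-treatment, or over 6 pre-treatment libraries, was called by edgeR (1 and 0 at an unadjusted p below 0.05), and their medians there were -0.04 and 0.03. In these transporters, too, the calls rested on leaving out control replicate 3. SLC39A7 is listed at 0 in all 12 libraries, and whether this reflects absence or the way reads were counted was not tested.

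Of 12 copper-handling genes, edgeR called 0 in co-treatment or over 6 pre-treatment libraries (2 and 0 at an unadjusted p below 0.05), and over 5 libraries, where 26.1% of all genes were called, 4 of 12 rose and 1 fell. ATP7B, a copper-exporting ATPase, fell by 0.70 ± 0.13 on the log2 scale (adjusted p = 0.00839). The copper chaperones SCO1 (0.62 ± 0.12) and CCS (0.72 ± 0.18), the enzyme SOD1, which CCS loads with copper (0.66 ± 0.13), and COMMD1 (0.57 ± 0.16) rose. Over 11 libraries, where 8.02% of all genes were called, ATP7B and CCS also differed between the experiments, by -0.89 ± 0.24 (adjusted p = 0.0355) and 0.98 ± 0.22 (adjusted p = 0.0206). Over all 12 libraries neither passed (adjusted p = 0.558 and 0.538).

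Metallothioneins also answer to glucocorticoids and to oxidants through NRF2, and genes of both responses were listed. Of 8 glucocorticoid-response genes tested, SGK1 rose in co-treatment (0.76 ± 0.12, adjusted p = 0.0141), from 150.2 ± 13.7 to 254 ± 3.02 CPM (SD, n = 3), where 0.598% of all genes were called. Of the 8, 4 had a positive and 4 a negative value in co-treatment, with a median of 0.0089, and 4 had an unadjusted p below 0.05. In pre-treatment over 6 libraries 0 were called (1 at an unadjusted p below 0.05). Over 5 libraries 3 of 8 were called, against 26.1% of all genes. The clock gene PER1 fell by 1.99 ± 0.18 on the log2 scale (adjusted p = 0.000903), and TSC22D3 (0.78 ± 0.16) and ERRFI1 (0.55 ± 0.17) rose. Of 12 genes of the NRF2 response, among them the gene of NRF2 itself (NFE2L2) and that of its inhibitor KEAP1, 0 were called in co-treatment with a median of 0.27 against -0.001 for all genes tested, 10 of the 12 having a positive value and 4 an unadjusted p below 0.05, and NQO1, the quinone reductase, had 0.73 ± 0.15 (adjusted p = 0.0511). In pre-treatment over 5 libraries TXN, the gene of thioredoxin, was the 1 gene of this list called (0.75 ± 0.16, adjusted p = 0.0123), and over 6 libraries 0 were, also at an unadjusted p below 0.05.

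Markers of other cell states moved in part with the same comparisons. VIM, the mesenchymal filament gene, rose in co-treatment (1.16 ± 0.21, adjusted p = 0.0272), and in pre-treatment with (2.42 ± 0.24, adjusted p = 0.0442) and without control replicate 3 (2.66 ± 0.20, adjusted p = 0.000718). It was the 1 of 10 mesenchymal markers tested to be called in co-treatment and over 6 pre-treatment libraries, while over 5 libraries, where 26.1% of all genes were called, 4 of 11 rose and 1 fell. The 13 mesenchymal markers summed to 926 to 1213 CPM in pre control, 497 to 856 CPM in pre treated, 686 to 949 CPM in co control and 849.5 to 899.6 CPM in co treated libraries, and PRRX1 had reads in 4 libraries and ANXA1 in 6. The 8 noradrenergic markers summed to 2135 to 3179 CPM in pre control and 1404 to 1821 CPM in pre treated libraries, and over 5 libraries GATA2, GATA3, PHOX2A and DBH fell and ISL1 rose among 7 tested. Over 6 libraries 0 of these 7 were called by edgeR (3 at an unadjusted p below 0.05). In co-treatment 0 of 7 were called, all 7 having a negative value and 3 an unadjusted p below 0.05. The 9 neuronal markers summed to 2655, 2729 and 3819 CPM in pre control replicates 1 to 3 and to 3071 to 3408 CPM in pre treated libraries. Over 5 libraries STMN2 and GAP43 rose and MAPT fell, and over 6 libraries edgeR called 0 of the 9 (1 at an unadjusted p below 0.05). The 8 glial markers summed to 7.20 to 7.93 CPM in pre control and 5.50 to 9.22 CPM in pre treated libraries, GFAP lay between 0.299 and 1.21 CPM, SLC1A3 had reads in 5 libraries, and 0 of 7 tested were called over 5 libraries, with 0 at an unadjusted p below 0.05. Their part in the levels of MT1X and MTF1 was not tested.

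Among the 5 genes whose levels ran most like the summed metallothioneins over the 12 libraries were DNPEP (Pearson r = 0.944), an aspartyl aminopeptidase, SPG21 (0.936), TRIM68 (0.927) and AC005795.1 (0.927), out of 24401 genes compared. The libraries share depth and composition differences between these genes, so that the correlations are a description. Of the other 14 metallothionein names and pseudogenes listed, 13 were among the counted symbols and none was tested in either experiment. The pseudogene MT1XP1 had 69 reads in 10 libraries, and MT1A and MT1JP had 5 reads each.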

How the data were processed

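Total RNA depleted of ribosomal RNA (TruSeq Stranded Total RNA kit) from 12 libraries of SH-SY5Y cells was sequenced. Per the authors, reads were checked with FastQC 0.11.8 and trimmed by cutadapt 2.10, HISAT2 2.1.0 placed them on hg19, and they were counted per gene symbol with HTSeq 0.7.2. The counts were deposited per library, neither normalized nor filtered. The strand setting and annotation version are not given in the sources used here. The deposited tables of the authors' own comparisons hold fold changes and p-values and were not used. Entries for reads not counted on a gene (0.200 to 0.830 outside genes per counted read) stayed out of library sizes and tests.

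Groups came from the sample titles. Counts were compared with edgeR 4.0.16 (quasi-likelihood test, TMM factors) in R 4.3.3, with Benjamini-Hochberg adjustment over all genes tested and a call at an adjusted p below 0.05. Genes were kept at the CPM of 5 counts in the smallest library (0.181 for co-treatment and 0.120 for pre-treatment) in at least the number of libraries of the smaller group. Scripts were tested on simulated counts. The alternatives were DESeq2 1.42.0, limma-voom (limma 3.58.1), edgeR's exact test, other scalings and filters, a fold threshold, 1 fit over both experiments, a replicate block and each library left out.

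The genes and lists were chosen with earlier results of these data known. All 9 genes are named in every library, and from each further list the genes called, at most 5 per list and comparison. The 5 genes most like the summed metallothioneins were picked by Pearson correlation of log2 CPM (prior count 2), of which 1 is not reported here. Residuals of same-numbered libraries correlated by -0.0784, -0.0789 and -0.0435 in co-treatment and by -0.226, 0.0264 and -0.273 in pre-treatment. Without pre control replicate 3, the pre-treatment values were 0.0918 and 0.00291 for replicates 1 and 2. The main fits treat the libraries as unpaired, but with 3 libraries per group such values cannot exclude a shared culture or batch. Of the counted symbols, 59.5% matched 1 gene of GENCODE lifted to hg19, from which positions and lengths were taken.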

Additional observations from a re-analysis of the deposited data

Results flagged for a closer look

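The response of MTF1 differed between the experiments by the interaction test over 11 libraries, with a difference of -0.82 (log2, pre-treatment minus co-treatment, adjusted p = 0.0250). Of all genes tested there, 8.02% were called, and the call of MTF1 was lost when any of several single libraries was left out. MTF1 was lower in 3 of 3 pre treated libraries than in pre control replicates 1 and 2. These controls also had the most reads outside genes (0.800 and 0.830 per counted read), whose part was not tested. Over all 12 libraries the difference was -0.63 (adjusted p = 0.549), and against pre control replicate 3 alone, chosen as a comparison after the data had been seen, the pre-treatment log2FC of MTF1 was -0.01, a value from 1 control library given as a description.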

How the results depend on the processing

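In co-treatment, 0 of the 9 genes were called under every alternative. Over 6 pre-treatment libraries and in the interaction over 12, the count of 0 became 2 and 1 only when pre control replicate 3 was left out. Over 5 pre-treatment libraries the 2 calls became 1 (MTF1) with upper-quartile factors, no filter, limma-voom or 1 fit over both experiments, 0 with a fold threshold, and 0 to 2 with each library left out in turn; 3 were called by DESeq2 and the exact test (MT2A added). The 26.1% of all genes called over 5 libraries belongs to the main fit, and the counts under other settings are not set against it. The 1 call of the interaction over 11 libraries ran from 0 to 1 when libraries were left out and stayed 1 otherwise. The count over all genes went from 6 over 6 pre-treatment libraries to 705 with DESeq2, 271 with the exact test, 319 without a filter and 68 with 1 fit over both experiments, but to 1 with library size alone and to 0 with upper-quartile factors, limma-voom or the replicate block. The cause of these shifts was not tested.

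The correlations of residuals showed no clear pairing by replicate number and cannot exclude one, and the main fits leave it out. With the replicate block 0, 0, 3, 0 and 1 genes were called in co-treatment, pre-treatment over 6 and 5 libraries, and the interaction over 12 and 11, MT2A being added over 5 libraries (0.78, adjusted p = 0.0446), and MT1F over 6 libraries turned to 0.094.

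Outside the comparison with pre control replicate 3 alone, directions turned only for values far from a call. Leaving out each library in turn gave a co-treatment log2FC of -0.15 to 0.30 for MT1X, -0.43 to 0.48 for MT1F, -0.040 to 0.22 for MTF1 and -0.012 to 1.75 for MT1E, and a pre-treatment log2FC over 6 libraries of -0.48 to 0.76 for MT1F (0.0072 with limma-voom). Interaction values ran over 12 libraries from -0.074 to 0.53 for MT2A, -0.14 to 0.031 for SLC30A1, -0.63 to 0.57 for MT1F and -1.47 to 0.78 for MT1E, and over 11 from -0.18 to 0.014 for SLC30A1 and -0.067 to 2.24 for MT1E. Against pre control replicate 3 alone, MT1X was -0.34 and MT2A -0.20, where over 5 libraries they had 0.88 and 0.78. The values from 1 control library are given as a description. Depth limits MT1E, MT1F, MT1G, MT1M and MT3, with at most 52 counts in a library.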
